A study of Gallus gallus with 4 samples.

Results

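Condensin peaks on chromosomes 21, 23 and 26 of the chicken genome are described here, chromosome by chromosome. The members are all peaks that the authors' SMC2 and CAP-H lists place on these chromosomes, with no filter on any measured value: 353 of 6474 SMC2 peaks and 240 of 4369 CAP-H peaks, or 593 of 10843 in all. Chromosome 21 held 110 SMC2 and 87 CAP-H peaks, chromosome 23 held 146 and 98, and chromosome 26 held 97 and 55. No sequence fragment assigned to these chromosomes but not placed on them was counted; the CAP-H list has 1 peak on such a fragment and the SMC2 list has 0. All coordinates are in the build galGal4, counted from 1.

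The peaks come from DT40, a chicken B cell lymphoma line, in which the gene of a condensin subunit had been knocked out and rescued with a transgene. The SMC2 pull-down came from cells with SBP-tagged SMC2 and the CAP-H pull-down from cells with SBP-tagged CAP-H; SBP is a streptavidin-binding peptide. In both, 2 ng/ml doxycycline suppressed the untagged protein, so that the transgene was the remaining source, and 500 ng/ml nocodazole blocked the cells in mitosis. Proteins were crosslinked to DNA with 1% formaldehyde, the lysate was sonicated, and the DNA bound to the tagged protein was taken on streptavidin beads and sequenced. The labels name 1 pull-down and 1 input for each subunit, with no replicates. They do not say how many clones were used or which promoter drives the transgene, and peak lists hold no expression values by which the cell type could be checked. Every interval below therefore covers counting error alone, and no difference has a replicate check.

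Condensin is a ring-shaped protein complex that compacts and stiffens chromosomes for cell division. SMC2 is one of its paired ATPase arms and is part of both vertebrate condensins, I and II. CAP-H is the kleisin that closes the ring of condensin I; condensin II has another kleisin in that place. Chromosomes 21, 23 and 26 are microchromosomes; birds carry many of these short chromosomes, which are rich in genes and in G and C bases. SMC2 is shared by both complexes and CAP-H belongs to one, and their lists are compared here by position. List overlap does not measure how far the complexes coincide, because each list comes from other cells, with 1 library and no stated threshold. Of CAP-H peaks, 43.75% on these chromosomes and 42.4% over the whole list overlapped an SMC2 peak. Condensin I also contains SMC2, yet 135 of 240 CAP-H peaks here had no SMC2 overlap. An SMC2 peak without CAP-H overlap is therefore not shown to lack condensin I.

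The lists give positions, not reads, so the depth of the libraries is unknown. The SMC2 list adds a score for each peak, the authors' own value, from 50.02 to 3100 over the whole list; the CAP-H list has none. As a stand-in for length, the highest coordinate that a peak reached was used, which is 6.80 Mb for chromosome 21, 5.72 Mb for chromosome 23 and 5.26 Mb for chromosome 26. No peak overlapped another peak of its own list on these chromosomes.

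Chromosome 23 was the most densely occupied of the group in both lists. Its SMC2 density was 25.5 peaks per Mb, with an exact 95% Poisson interval from 21.6 to 30.0. The density was 16.2 (13.3 to 19.5) on chromosome 21 and reached 18.4 (14.95 to 22.5) on chromosome 26. Chromosome 23 thus had 1.58 times (1.22 to 2.04) the SMC2 density of chromosome 21 and 1.38 times (1.06 to 1.81) that of chromosome 26. CAP-H density was 17.1 peaks per Mb (13.9 to 20.9) on chromosome 23, 12.8 (10.2 to 15.8) on chromosome 21 and 10.5 (7.88 to 13.6) on chromosome 26. The CAP-H ratio of chromosome 23 to chromosome 26 was 1.64 (1.17 to 2.32), while that to chromosome 21, 1.34 (0.994 to 1.81), had an interval that included 1. Chromosomes 21 and 26 did not differ beyond counting error in either list. With the 500 kb at each side left out, a choice made after the data were seen, chromosome 23 kept an interval above 1 only against chromosome 21 in SMC2, at 1.37 (1.02 to 1.86). The ratio was then 1.26 (0.913 to 1.74) against chromosome 26 in SMC2, and for CAP-H 1.13 (0.782 to 1.64) against chromosome 21 and 1.40 (0.917 to 2.17) against chromosome 26.

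The other microchromosomes, the 15 others among chromosomes 11 to 28, averaged 18.4 SMC2 and 11.03 CAP-H peaks per Mb. Chromosome 23 stood above that average by 1.39 times (1.17 to 1.64) for SMC2 and 1.55 times (1.25 to 1.91) for CAP-H, while the intervals of chromosomes 21 and 26 included a ratio of 1 in both lists. These ratios include the chromosome ends. With its own ends left out, chromosome 23 had 20.3 SMC2 and 12.5 CAP-H peaks per Mb. Whether it then still exceeds the other microchromosomes was not tested. The placed chromosomes nearest in length, chromosomes 24, 27 and 28, carried more SMC2 peaks, at 44.0, 60.1 and 57.8 per Mb. Their CAP-H densities were 15.5, 30.3 and 31.0 per Mb, and that of chromosome 24 was below the 17.1 of chromosome 23. Chromosomes 24, 27 and 28 are among the 15 others and raise their average in both lists. The ratios to that average without them were not computed. SMC2 peaks covered 1.82%, 3.24% and 2.10% of chromosomes 21, 23 and 26, against 8.01%, 9.24% and 8.29% of chromosomes 24, 27 and 28. CAP-H peaks covered 2.11%, 3.22% and 1.70% of chromosomes 21, 23 and 26, against 4.04%, 6.43% and 5.94% of chromosomes 24, 27 and 28. Counting intervals assume independent peaks, and these peaks were clustered: across 100-kb windows the variance of the SMC2 count was 2.20, 3.36 and 1.38 times its mean on chromosomes 21, 23 and 26, and that of the CAP-H count 2.32, 2.77 and 1.56 times.

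**Figure D1:**
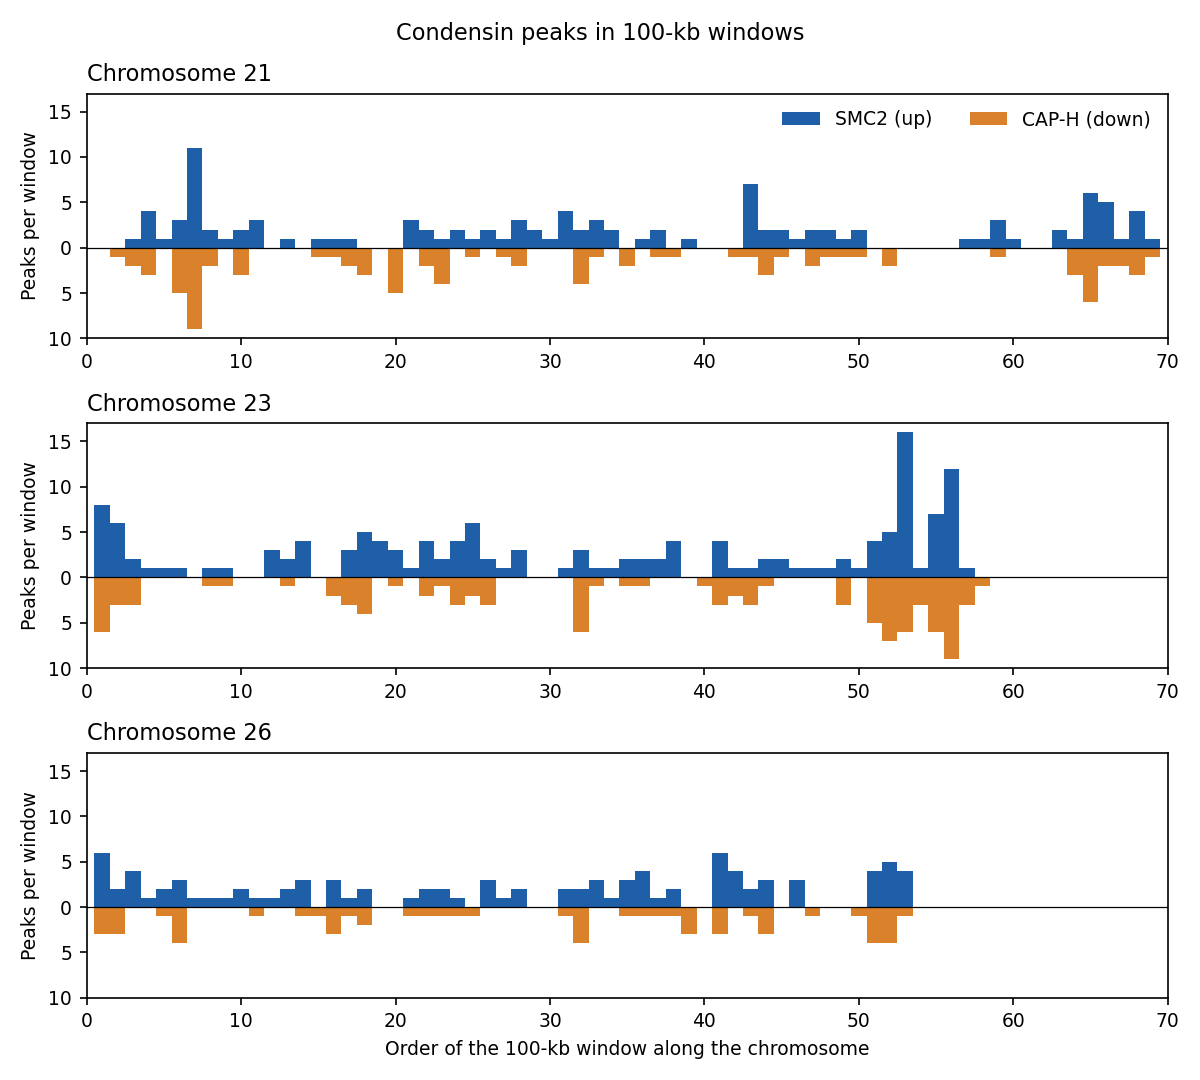
Number of SMC2 peaks (blue, upward) and CAP-H peaks (orange, downward) whose centre lies in each 100-kb window, with the windows in order along chromosomes 21, 23 and 26; no error is drawn because there is 1 library per subunit. The richest window held 11 SMC2 peaks on chromosome 21, 16 on chromosome 23 and 6 on chromosome 26, and empty stretches interrupt each chromosome.

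On chromosome 21 the first and the last of 5 equal segments held most SMC2 peaks, 26.4% and 23.6%, against 16.4% to 17.3% in those between. CAP-H was richest in the first and second segments, with 28.7% and 25.3%, and poorest in the middle one, with 10.3%. Of 69 windows of 100 kb, 31 held peaks of both lists, 18 held SMC2 alone, 7 held CAP-H alone and 13 held neither. The richest window of both lists was chr21:600001-700000, with 11 SMC2 and 9 CAP-H peaks. It was followed for SMC2 by chr21:4200001-4300000, with 7 SMC2 peaks and 1 CAP-H peak, and by chr21:6400001-6500000, with 6 of each. For CAP-H, chr21:500001-600000 and chr21:1900001-2000000 tied at 5 peaks, and the latter held 0 SMC2 peaks. The 7 richest windows of each list carried 37.3% of SMC2 and 41.4% of CAP-H peaks.

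Chaining peaks of either list that lay within 10 kb of each other gave 8 clusters of at least 5 peaks on chromosome 21, with 57 of its 197 peaks in 2.21% of its length. The cluster with most peaks, chr21:618082-643847, held 6 SMC2 and 7 CAP-H peaks in 25.8 kb. All but 1 of its SMC2 peaks had a CAP-H partner. The exception, chr21:628196-629769 with a score of 169, was also the strongest unshared SMC2 peak of the chromosome, and lay 1308 bp from the nearest CAP-H peak. The next clusters were chr21:6483322-6512619, with 5 peaks of each list, of which 2 and 2 had partners, and chr21:2697153-2718696, with 4 SMC2 and 3 CAP-H peaks.

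The strongest SMC2 peak of chromosome 21, chr21:575345-579417, was also its widest at 4073 bp. Its score was 658, and the next, of chr21:6434252-6436300, was 296. A second SMC2 peak followed it after a gap of 7 bp, at chr21:579425-581405 with a score of 234, and a single CAP-H peak, chr21:577428-581159, overlapped both. The remaining peaks of the leading 5 by score were chr21:6799548-6801741 at 270 and chr21:636713-638725 at 262. All 5 overlapped CAP-H. The SMC2 peak at 6799548 ends 5 bp before the highest listed coordinate, which belongs to its CAP-H partner.

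The widest CAP-H peak of all 3 chromosomes was also on chromosome 21. It ran over 9024 bp, chr21:4230873-4239896, and overlapped 3 narrow SMC2 peaks of 788, 899 and 861 bp, with scores of 53.6, 73.0 and 77.5, so that the broadest CAP-H site here matched SMC2 peaks of low or middling score. The other CAP-H peaks among the widest were chr21:972598-977463, of 4866 bp, and chr21:266175-269987, of 3813 bp. Each had 1 SMC2 partner. Among SMC2 peaks, chr21:972067-974782, of 2716 bp, was second in width and matched the 4866-bp CAP-H peak. The third in width, chr21:5889695-5892278 with a score of 151, stood apart: its nearest CAP-H peak was 55.3 kb away. The widest CAP-H peaks without an SMC2 partner were chr21:1692177-1695629 and chr21:4306743-4309303.

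The 2 longest stretches of chromosome 21 with no peak of either list lay towards its far side. The longest without a peak of either list was 404 kb, chr21:5199055-5603474, followed by 304 kb at chr21:5946945-6251243 and 227 kb at chr21:3887522-4114793. In CAP-H alone, stretches of 634 kb, chr21:5199055-5833539, and 521 kb, chr21:5834404-6355351, were split by a single peak of 864 bp. The SMC2 list had a stretch of 613 kb, chr21:4990660-5603474, in the same area. Nearer the first bases, CAP-H was missing over 441 kb, chr21:992724-1434209, and SMC2 over 316 kb, chr21:1690516-2006260. Before the first peak, CAP-H at chr21:170121-171174, neither list had an entry, and the first SMC2 peak began at 268215. In all, 17 stretches longer than 100 kb between peaks of either list made up 43.3% of chromosome 21.

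Chromosome 23 had its peaks piled up at the far side, with a smaller group at the first bases. Dividing it into 5 equal segments, the last, from 4.57 to 5.72 Mb, held 34.9% of SMC2 and 43.9% of CAP-H peaks, while the other segments held 13.7% to 19.2% of SMC2 and 12.2% to 15.3% of CAP-H peaks. On chromosome 26, by comparison, the fullest segments held 24.7% of SMC2 peaks, from 3.16 to 4.21 Mb, and 27.3% of CAP-H peaks, from 4.21 to 5.26 Mb.

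Window by window, chr23:5200001-5300000 was richest in SMC2, with 16 SMC2 and 6 CAP-H peaks. The window chr23:5500001-5600000 followed with 12 SMC2 peaks and led the CAP-H list with 9, and the first 100 kb held 8 SMC2 and 6 CAP-H peaks. CAP-H also had 7 peaks in chr23:5100001-5200000 and 6 in chr23:3100001-3200000. Only 7 of 58 windows were empty in both lists, 30 held both, 18 held SMC2 alone and 3 held CAP-H alone.

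Clusters of at least 5 peaks numbered 12 on chromosome 23 and took in 100 of its 244 peaks, in 4.16% of its length. The largest, chr23:5476265-5524313, packed 11 SMC2 and 10 CAP-H peaks into 48.0 kb, of which 7 and 7 had partners. It held the strongest SMC2 peak of the chromosome, chr23:5499674-5502268 with a score of 539, which met the CAP-H peak chr23:5499449-5502076 over 2403 bp with centres 208 bp apart. It also held the SMC2 peak chr23:5493682-5496336, with a score of 384. When SMC2 peaks less than 1 kb apart were merged, 1 stretch of 14.7 kb formed here, chr23:5487608-5502268, the widest merged SMC2 stretch on the 3 chromosomes. The next clusters were chr23:5193923-5226606, with 9 SMC2 and 4 CAP-H peaks, and chr23:5535850-5564098, with 6 and 4.

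The remaining SMC2 peaks of the leading 5 by score lay near the first bases of chromosome 23. These were chr23:89375-92540 at 507, chr23:104929-107847 at 409 and chr23:26022-28753 at 355, and each had a CAP-H partner. The first SMC2 peak, chr23:19672-21489, overlapped CAP-H by 176 bp. CAP-H reached further out on both sides. Its first peak, chr23:25-3396, lay 16.3 kb from the nearest SMC2 peak, and its last, chr23:5714803-5717808, lay 18.6 kb beyond the last SMC2 peak, chr23:5694236-5696157. These outermost peaks were also the widest CAP-H peaks of the chromosome without an SMC2 partner, at 3372 and 3006 bp.

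The 3 widest CAP-H peaks on chromosome 23 each overlapped more than 1 SMC2 peak. The widest, chr23:1779517-1787680 with 8164 bp, overlapped 3 SMC2 peaks in a row, among them the 2 widest of the chromosome: chr23:1781773-1785090, of 3318 bp, and chr23:1778460-1781748, of 3289 bp and a score of 310. CAP-H peaks of 5425 bp, chr23:5202697-5208121, and 5094 bp, chr23:5486671-5491764, had 2 SMC2 partners each. The strongest SMC2 peaks with no CAP-H overlap, chr23:5541542-5544003 at 287 and chr23:5283514-5285955 at 276, lay 2867 and 2624 bp from a CAP-H peak. The cluster around the latter, chr23:5280180-5296832, had 4 SMC2 peaks and 1 CAP-H peak, with no overlap between them.

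The longest stretch of chromosome 23 with no peak of either list was 263 kb, chr23:2752896-3016149, then 235 kb at chr23:871527-1106774 and 200.5 kb at chr23:3787343-3987820. Stretches over 100 kb numbered 16 and made up 42.9% of the chromosome, close to the value on chromosome 21 although peaks were denser. CAP-H alone was missing over 605 kb, chr23:2546816-3151357, 493 kb, chr23:4344219-4837143, and 488 kb, chr23:217126-705290.

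Chromosome 26 had its peaks more evenly spread and, at cluster gaps of up to 10 kb, fewer of them in clusters. No window of 100 kb held more than 6 SMC2 or 4 CAP-H peaks. The first 100 kb and chr26:4000001-4100000 had 6 SMC2 and 3 CAP-H peaks each, and chr26:5100001-5200000 had 5 SMC2 and 4 CAP-H peaks. CAP-H reached 4 also in chr26:500001-600000, chr26:3100001-3200000 and chr26:5000001-5100000. Of 53 windows, 25 held both lists, 15 SMC2 alone, 5 CAP-H alone and 8 neither. Clusters of at least 5 peaks numbered 6, with 34 of 152 peaks, and none of them held more than 6. Of the peaks of both lists, 55 lay more than 10 kb from any other, 39 of them SMC2, against 44 of 197 peaks on chromosome 21 and 55 of 244 on chromosome 23.

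Its clusters of 6 peaks were chr26:4070335-4084781, chr26:4307961-4327069, chr26:5044453-5077679 and chr26:5155192-5164252, with 3 or 4 SMC2 peaks each. In the first and the last of these 3 of 4 SMC2 peaks overlapped CAP-H, and in the third 1 of 3 did. The clusters of 5 were chr26:507870-513907, where both SMC2 peaks had partners, and chr26:1519338-1536863.

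The highest SMC2 score of the 3 chromosomes was on chromosome 26, in its first listed peak of either list. This peak, chr26:1661-4981, scored 1662 over 3321 bp. It overlapped a pair of CAP-H peaks, chr26:1675-3221 and chr26:3835-5054, and the next SMC2 peak, chr26:11287-12541, scored 83.9 and had no partner. The others of the leading 5 were chr26:4317267-4319511 at 464, chr26:1753628-1755177 at 343, chr26:1340015-1342253 at 282 and chr26:4017588-4019640 at 231. All had a CAP-H partner. The strongest SMC2 peaks without one were chr26:5061770-5064170 at 206, which was also the second widest with 2401 bp, and chr26:244895-246279 at 132. The third in width was chr26:5155192-5157575, with 2384 bp and a score of 89.3.

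The 2 widest CAP-H peaks of chromosome 26 had no SMC2 overlap. The peak chr26:4658483-4662772, of 4290 bp, lay 68.5 kb from the nearest SMC2 peak. The peak chr26:4251517-4255702, of 4186 bp, lay 6.36 kb away from one. The third, chr26:5051233-5055086, of 3854 bp, had an SMC2 partner. The last SMC2 peak, chr26:5259597-5260742, had no partner, and the last CAP-H peak, chr26:5254912-5255543, overlapped another SMC2 peak by 239 bp.

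Stretches of chromosome 26 with no peak of either list reached 305 kb at chr26:4662773-4967877, 296 kb at chr26:1755819-2052071 and 274 kb at chr26:2790065-3063584. The first began where the 4290-bp CAP-H peak ended. Stretches over 100 kb numbered 13 and made up 42.0% of the chromosome. CAP-H was missing over 655 kb, chr26:2439392-3094738, the longest such stretch of CAP-H on the 3 chromosomes, over 541 kb, chr26:530152-1070987, and over 331 kb, chr26:4327070-4658482. The median gap between neighbouring CAP-H peaks was 49.9 kb, against 31.3 kb on chromosome 21 and 14.8 kb on chromosome 23. For SMC2 the median gaps were 26.7 kb on chromosome 26, 34.2 kb on chromosome 21 and 14.4 kb on chromosome 23.

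CAP-H peaks were wider than SMC2 peaks on each of these chromosomes, and both were narrower in the median than on the other microchromosomes as a whole. Median SMC2 width was 985.5 bp (interquartile range 823 to 1227) on chromosome 21, 1030.0 bp (833 to 1448) on chromosome 23 and 992 bp (859 to 1314) on chromosome 26. The other microchromosomes had a median of 1189 bp (934 to 1680), and 17.1% of their SMC2 peaks exceeded 2 kb, against 7.27%, 13.7% and 7.22% on chromosomes 21, 23 and 26. Median CAP-H width was 1346 bp (949.5 to 2134), 1416.5 bp (899 to 2516) and 1325 bp (975.5 to 2070.5), against 1538 bp (1036.5 to 2484.5) on the other microchromosomes. The widest SMC2 peak of the 3 chromosomes reached 4073 bp, while the other microchromosomes had SMC2 peaks of up to 17544 bp. Many peaks had a close neighbour in their own list. Merging those less than 1 kb apart reduced CAP-H from 87 to 71 peaks on chromosome 21, from 98 to 78 on chromosome 23 and from 55 to 48 on chromosome 26. SMC2 fell from 110 to 102, from 146 to 125 and from 97 to 91.

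**Figure D2:**
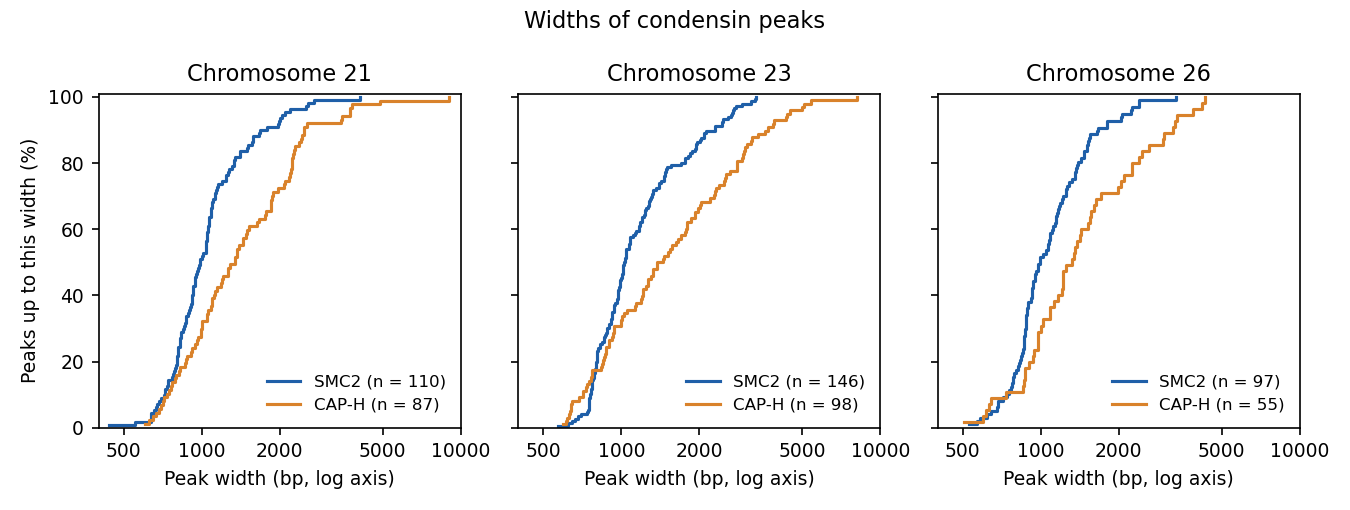
Cumulative share of peaks (vertical axis, percent) up to a given width (horizontal axis, bp, log axis) for SMC2 (blue) and CAP-H (orange) on chromosomes 21, 23 and 26. The CAP-H curve runs to the right of the SMC2 curve over most of its course. Its medians are 1325 to 1416.5 bp, against 985.5 to 1030.0 bp for SMC2. On chromosomes 21, 23 and 26, 50.9%, 44.5% and 51.5% of SMC2 peaks were under 1000 bp. The CAP-H shares were 31.0%, 31.6% and 29.1%.

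SMC2 peaks had a CAP-H partner less often on chromosome 26 than on chromosomes 21 and 23. A peak was called shared when at least 1 bp of it lay in a peak of the other list. Of SMC2 peaks, 42 of 110 were shared on chromosome 21, 59 of 146 on chromosome 23 and 20 of 97 on chromosome 26; over the whole SMC2 list the share was 31.0%. These counts correspond to 38.2% (95% exact Clopper-Pearson interval 29.1 to 47.9), 40.4% (32.4 to 48.8) and 20.6% (13.1 to 30.0). The odds that an SMC2 peak was shared on chromosome 26 were 0.400 times (0.217 to 0.709) those on chromosomes 21 and 23 together, and 0.470 times (0.270 to 0.782) those on the other microchromosomes, where 35.6% (33.8 to 37.4) were shared. Single chromosomes varied: on chromosome 24 the SMC2 share was 25.8% (20.7 to 31.4), an interval that overlaps that of chromosome 26. The contrast of chromosome 26 with the rest was chosen with these shares in view.

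For CAP-H, 36 of 87 peaks were shared on chromosome 21, 50 of 98 on chromosome 23 and 19 of 55 on chromosome 26, against 42.4% of the whole CAP-H list. The shares were 41.4% (30.9 to 52.4), 51.0% (40.7 to 61.3) and 34.5% (22.2 to 48.6), and that of the other microchromosomes was 54.7% (52.3 to 57.1). Here the odds on chromosome 26 against chromosomes 21 and 23 together, 0.609 (0.306 to 1.18), did not exclude 1. The odds against the other microchromosomes excluded 1 for chromosome 26, at 0.437 (0.235 to 0.791), and for chromosome 21, at 0.585 (0.367 to 0.925), but not for chromosome 23, at 0.863 (0.562 to 1.33). These odds depend on an uneven pool: its chromosomes 24, 27 and 28 had CAP-H shares of 67.0%, 67.7% and 65.3%. The odds without them were not computed. Chromosome 26 also offered less CAP-H to meet: its CAP-H peaks covered 1.70% of its length, against 2.11% on chromosome 21 and 3.22% on chromosome 23. The part of this in the SMC2 share was not tested. SMC2 peaks outnumbered CAP-H peaks by 1.76 to 1 (1.25 to 2.50) on chromosome 26, 1.49 (1.15 to 1.94) on chromosome 23 and 1.26 (0.946 to 1.69) on chromosome 21. These intervals overlap, and that of chromosome 21 includes 1. The ratio was 1.67 (1.57 to 1.77) on the other microchromosomes and 1.45 (1.40 to 1.52) over all placed chromosomes. It was 2.84, 1.98 and 1.86 on chromosomes 24, 27 and 28.

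**Figure D3:**
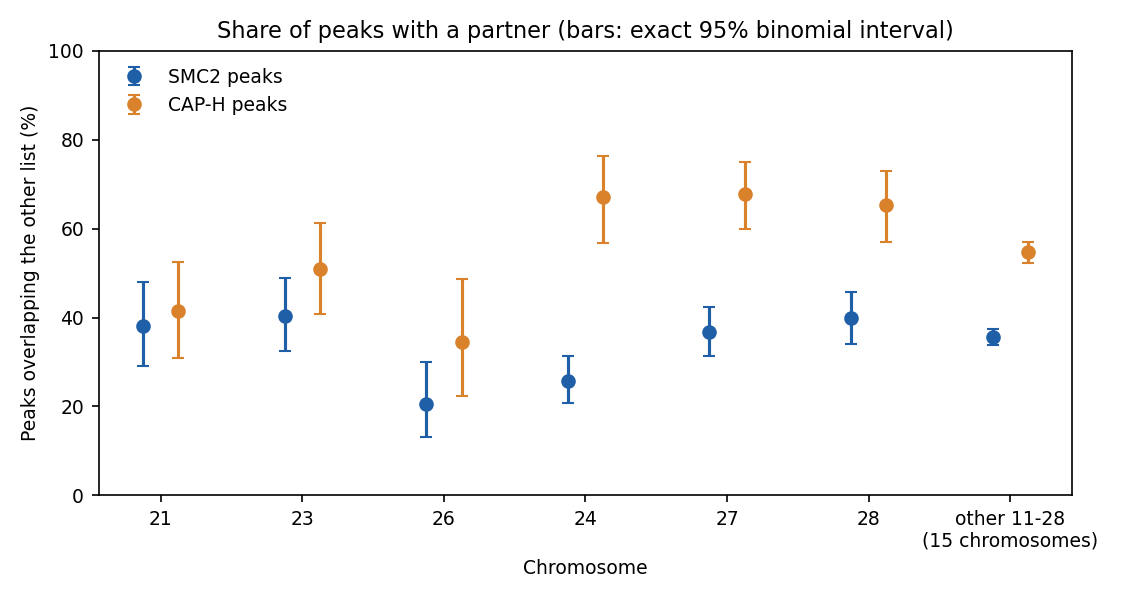
Share of SMC2 peaks (blue) and CAP-H peaks (orange) that overlap the other list by at least 1 bp (vertical axis, percent) on chromosomes 21, 23 and 26, on chromosomes 24, 27 and 28, and on the 15 other microchromosomes together; bars are exact 95% binomial intervals, for counting error only. Chromosome 26 has the lowest SMC2 and CAP-H shares of the groups shown, 20.6% and 34.5%.

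The rule for overlap mattered for chromosomes 21 and 23 and less for chromosome 26. When the overlap had to span at least 50% of both peaks, 15 SMC2 peaks remained shared on chromosome 21, 24 on chromosome 23 and 13 on chromosome 26, or 13.6%, 16.4% and 13.4%, against 17.5% of the whole SMC2 list. Under that rule the shares of the 3 chromosomes thus lay close together. The same pairs made up 17.2%, 24.5% and 23.6% of CAP-H peaks, against 26% of the whole list.

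Shared SMC2 peaks had higher median scores than unshared ones on each chromosome, as they did over all placed chromosomes, with 107 against 66.8. The median score was 90.8 for shared and 67.4 for unshared peaks on chromosome 21, 96.4 and 68.5 on chromosome 23, and 104 and 66.2 on chromosome 26. Shared SMC2 peaks were also wider, with medians of 1113 against 903.5 bp, 1456 against 935 bp and 1522.5 against 930 bp on these chromosomes. The part of width in the score difference was not tested. All SMC2 peaks of a chromosome had medians of 74.0, 74.2 and 71.2, near the 74.5 of the whole list and under the 79.1 of the other microchromosomes. Scores over 200 were reached by 6 SMC2 peaks on chromosome 21, 16 on chromosome 23 and 7 on chromosome 26. These counts made up 5.45%, 10.96% and 7.22% of the SMC2 peaks of the respective chromosome. The share was 9.71% on the other microchromosomes and 8.20% over all placed chromosomes. Differences between these shares were not tested.

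Dividing the whole SMC2 list into 3 equal classes by score, with bounds at 63.7 and 92.3, the shared part of the lowest class was 5 of 33 on chromosome 21, 10 of 46 on chromosome 23 and 1 of 31 on chromosome 26. In the middle class it was 17 of 47, 16 of 52 and 6 of 43. In the highest class it was 20 of 30, 33 of 48 and 13 of 23, or 66.7% (47.2 to 82.7), 68.8% (53.7 to 81.3) and 56.5% (34.5 to 76.8). Over all placed chromosomes the shares of the lowest, middle and highest class were 14.5%, 24.2% and 58.2%, so the rise with score was general and the highest class of chromosome 26 lay near the overall share. In the lowest and middle class chromosome 26 had 3.23% (0.0816 to 16.7) and 13.95% (5.30 to 27.9). The highest class made up 23.7% of its SMC2 peaks, 27.3% of those on chromosome 21 and 32.9% of those on chromosome 23, and these shares were not tested against each other.

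**Figure D4:**
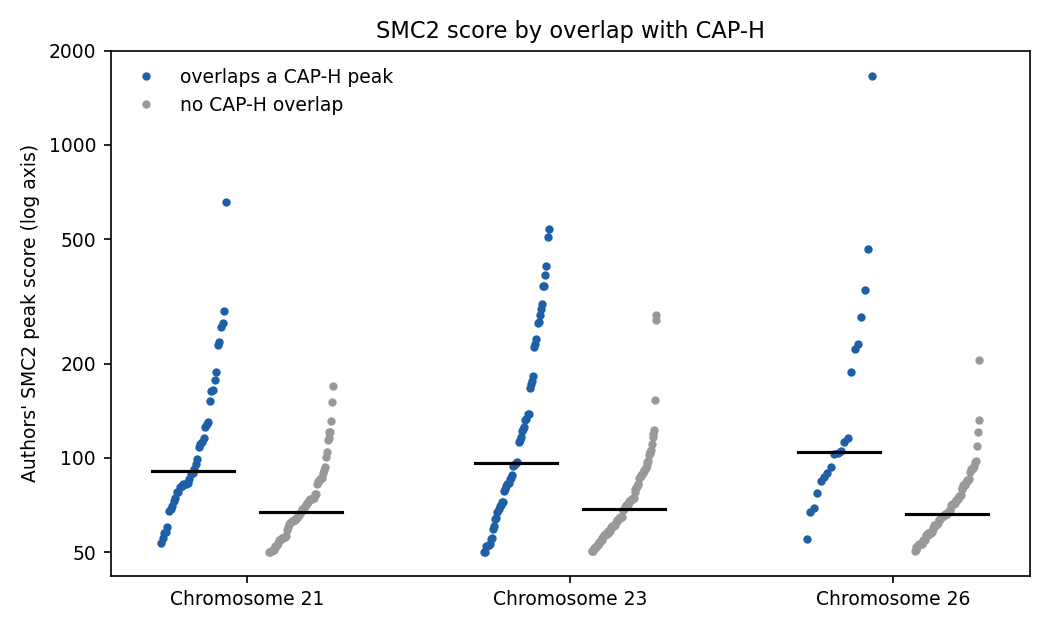
The authors' score of every SMC2 peak (vertical axis, log axis) on chromosomes 21, 23 and 26, split into peaks that overlap a CAP-H peak (blue) and peaks that do not (grey); points are ordered by score within each group and black lines are medians. Medians of shared peaks lie at 90.8, 96.4 and 104, those of unshared peaks at 67.4, 68.5 and 66.2, and the point at 1662 is the first peak of chromosome 26.

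Wide CAP-H peaks were shared more often than narrow ones throughout the list, at 64.7% (62.05 to 67.2) in the widest and 22.8% (20.4 to 25.4) in the narrowest of 3 classes over all placed chromosomes. Divided by the same bounds of 3 equal classes of the whole CAP-H list, 1080 and 1847 bp, the widest class was shared in 18 of 30 cases on chromosome 21, 31 of 37 on chromosome 23 and 9 of 16 on chromosome 26. The narrowest class was shared in 9 of 31, 10 of 35 and 3 of 18 cases. A wide peak has more bases that can be met by chance, and this was not corrected for. Median widths of shared and unshared CAP-H peaks were 1802 and 1148 bp on chromosome 21, 2121.5 and 1004.5 bp on chromosome 23, and 1707 and 1187.5 bp on chromosome 26.

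Where the lists met on these chromosomes, pairs of peaks were classed as nested or staggered. A pair counted as nested only if 1 peak lay inside the other to the base, and as staggered otherwise. Some staggered pairs were nearly nested: in 1 on chromosome 21 the overlap took 927 bp of an SMC2 peak of 928 bp. Whether most pairs were nested within the precision of peak edges was not tested. Pairs on other chromosomes were not classed in this way. The 3 chromosomes held 127 overlapping pairs, of which 78 were staggered, 40 had the SMC2 peak inside the CAP-H peak and 9 had the CAP-H peak inside the SMC2 peak. SMC2 lay inside CAP-H in 24 of 61 pairs on chromosome 23, 11 of 44 on chromosome 21 and 5 of 22 on chromosome 26. The CAP-H peak was the wider one in 87 of 127 pairs, with a median ratio of widths of 1.35. The centres were 570.0 bp apart in the median (interquartile range 224.5 to 1077), and 57 pairs had centres within 500 bp. The median overlap was 968 bp. A CAP-H peak met more than 1 SMC2 peak in 20 cases, up to 3, and an SMC2 peak met more than 1 CAP-H peak in 6 cases, never more than 2.

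SMC2 peaks without a partner were often far from the CAP-H list on these chromosomes. Such distances were not computed for other chromosomes, so they are not shown to be particular to these. On chromosome 21 the median gap from an unshared SMC2 peak to the nearest CAP-H peak was 33.7 kb, and 28 of 68 lay more than 50 kb away. The median was 19.5 kb on chromosome 23, where 32 of 87 lay beyond 50 kb, and 27.8 kb on chromosome 26, where 22 of 77 did. The most isolated SMC2 peaks lay 229, 220 and 305 kb from CAP-H. Unshared CAP-H peaks were closer to SMC2, with medians of 10.5 kb on chromosome 21, 4.96 kb on chromosome 23 and 15.5 kb on chromosome 26. The SMC2 list is also the denser one, with 110, 146 and 97 peaks against 87, 98 and 55. The part of this in the shorter gaps was not tested. Within 1 kb of the other list lay 2 of 68, 7 of 87 and 4 of 77 unshared SMC2 peaks on chromosomes 21, 23 and 26, and 5 of 51, 11 of 48 and 6 of 36 unshared CAP-H peaks. Within 10 kb lay 62.5% of unshared CAP-H peaks on chromosome 23, against 49.0% on chromosome 21 and 41.7% on chromosome 26.

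**Figure D5:**
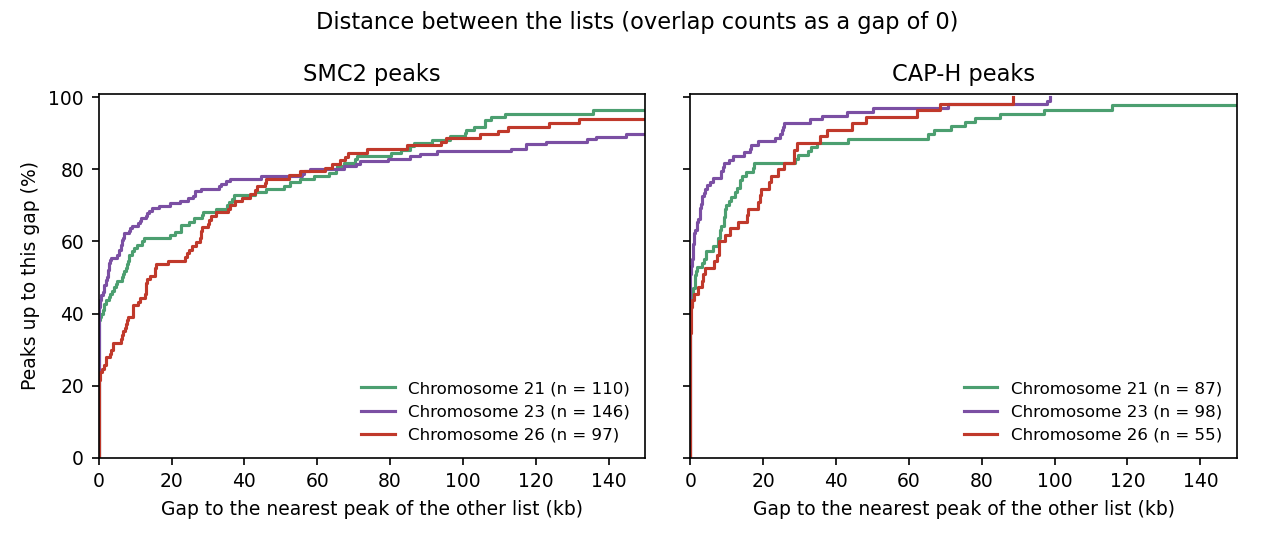
Cumulative share of SMC2 peaks (left) and CAP-H peaks (right) up to a given gap from the nearest peak of the other list (horizontal axis, kb, cut at 150 kb), for chromosomes 21, 23 and 26; overlapping peaks have a gap of 0. The curves start at the shared part, 38.2%, 40.4% and 20.6% for SMC2 on chromosomes 21, 23 and 26, and the SMC2 curve of chromosome 26 starts lowest.

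The 500 kb at the 2 sides, added up, held a larger share of the peaks than of the length, in value, on each of the 3 chromosomes. The shares were highest on chromosome 23. These sections make up 17.5% of its length and held 34.2% (26.6 to 42.5) of SMC2 and 39.8% (30.0 to 50.2) of CAP-H peaks. The shares were 28.9% (20.1 to 39.0) and 30.9% (19.1 to 44.8) in 19.0% of the length on chromosome 26, and 21.8% (14.5 to 30.7) and 26.4% (17.6 to 37.0) in 14.7% on chromosome 21, where the SMC2 interval included the share of length. The sides were unlike on chromosome 21: the first 500 kb held 5.45% of SMC2 and 6.90% of CAP-H peaks in 7.35% of the length, and the last 500 kb held 16.4% and 19.5%. On chromosome 23 the first and last 500 kb held 12.3% and 21.9% of SMC2 peaks in 8.74% of the length each, and on chromosome 26 they held 15.5% and 13.4% in 9.50%. The far end is set by the last listed peak of either list, so that peak always counts there. It is a CAP-H peak on chromosomes 21 and 23 and an SMC2 peak on chromosome 26. The part of this in the shares was not tested.

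The 14 other microchromosomes longer than 1 Mb together had 15.6% of SMC2 and 16.4% of CAP-H peaks within 500 kb of an end, in 9.14% of their length. On chromosome 24 these sections held 24.7% (19.7 to 30.3) of SMC2 and 27.8% (19.2 to 37.9) of CAP-H peaks in 16.0% of the length. On chromosome 27 they held 23.3% (18.8 to 28.4) and 27.2% (20.4 to 34.9) in 19.2%. Chromosome 28 went the other way, where these sections held 8.76% (5.69 to 12.8) of SMC2 and 10.2% (5.82 to 16.3) of CAP-H peaks in 21.1% of the length. Without these sections the SMC2 density was 14.8, 20.3 and 16.2 peaks per Mb on chromosomes 21, 23 and 26, and the CAP-H density 11.03, 12.5 and 8.92.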

How the data were processed

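Peak lists of 1 SMC2 and 1 CAP-H pull-down were used; the files of the input libraries were not used here. Per the submitters' processing notes, BWA and the build galGal4 were used, with no versions given. Peaks carry names of the form that MACS writes; for the caller, neither version nor control nor threshold is stated in the labels or headers. Peak starts were deposited counted from 0, since both lists hold starts of 0, and 1 was added. The score in the authors' SMC2 list is a value per peak whose scale no header states, and it was used to rank and class SMC2 peaks. The deposited profiles around start sites pool the whole genome and were not used.

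The members and the rules for naming regions were chosen with earlier results of these data known. Peaks were compared by overlap per chromosome, counted by centre in windows of 100 kb, and chained into clusters at gaps of up to 10 kb. Named regions were, on each chromosome, the 5 highest SMC2 scores, the 3 widest peaks of each list, the 3 richest windows per list with ties, the 3 longest empty stretches, the 3 largest clusters, the first and last peaks, and the leading 2 unshared peaks per list. Some others were named after their values were seen: the remaining clusters of chromosome 26, the stretches empty in 1 list, and partners and neighbours of named peaks. Intervals are exact at 95% (Poisson, Clopper-Pearson, conditional for ratios and odds ratios). They treat peaks as independent and cover counting error only; with 1 library per subunit no p-value was computed. Overlap by at least 1 bp and the merging of overlapping peaks were tested on simulated peaks against a count by single bases. Window counts were tested only against the total of simulated peaks. The other overlap rules, merging at gaps under 1 kb and the chaining into clusters were not tested in this way. Alternatives were other overlap rules, windows, cluster gaps and lengths, merging, a score filter and leaving out the ends. Python 3.11.15, numpy 2.4.6, pandas 2.3.3, scipy 1.17.1 and matplotlib 3.10.9 were used.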

Additional observations from a re-analysis of the deposited data

How the results depend on the processing

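Of 72 values recomputed, 45 stayed within the counting interval of the reported value (for counts of clusters, within 1.5 times) and 27 moved. Requiring 50% of both peaks to overlap gave 13.6% and 16.4% of SMC2 and 17.2% and 24.5% of CAP-H peaks shared on chromosomes 21 and 23; on chromosome 26 both shares stayed within their intervals. Keeping the upper 50% of the whole SMC2 list by score left 7.79, 12.6 and 7.98 SMC2 peaks per Mb and 0.609, 0.735 and 0.764 SMC2 peaks per CAP-H peak on chromosomes 21, 23 and 26; the ratio thus went from above to below 1 on each, since the filter removes SMC2 peaks alone. Of these SMC2 peaks 60.4%, 56.9% and 40.5% were shared, so chromosome 26 was still lowest in value. The filtered shares have no interval, so this order was not tested. Under the same filter 38.8% of CAP-H peaks were shared on chromosome 23, and 33.3%, 29.3% and 32.1% of windows were empty. Windows of 50 kb were empty in 42.3%, 33.9% and 34.9% of cases, and windows of 200 kb in 8.57% and 3.45% on chromosomes 21 and 23; the change follows from the size of the window. Merging peaks under 1 kb apart gave 13.6 CAP-H peaks per Mb on chromosome 23. Leaving out the ends, chosen after the data were seen, gave 20.3 SMC2 and 12.5 CAP-H peaks per Mb there. The ratios of chromosome 23 to chromosome 26 then included 1 in both lists. Cluster gaps of 5 kb gave 5 clusters on chromosome 21 and gaps of 20 kb gave 10 on chromosome 26, both also chosen afterwards. At 20 kb chromosome 21 had 9 clusters, so chromosome 26 then no longer had the fewest. Using the span of the peaks as length, or counting gaps of up to 500 bp as shared, moved nothing beyond its interval. No paired analysis was possible because each subunit has 1 library. The depth of the libraries is unknown, so a peak missing from a list may lie under that list's threshold.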
